A study of Homo sapiens with 2 samples.

Results

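The genes described here are 42 components and targets of the Wnt pathway, chosen by symbol from a fixed list, and every Affymetrix probe set that the array annotation pairs with exactly 1 of those symbols was used. Such probe sets, 114 of 41091 on the array, covered 38 of the 42 genes, and 32 of these 38 reached the floor of 84.1 signal units (the higher of the 2 arrays' median signals) on at least 1 array. No signal is given for WNT3 and FZD8, because each of their 3 probe sets also carries another symbol, and signals of PORCN and TCF7 were not analysed here. WNT4, WNT5A, WNT5B, WNT10A, WNT11 and NKD1 lay below the floor on both arrays on their brightest probe set.

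The cells were PLC/PRF/5, a long-established line from a human hepatocellular carcinoma, with 1 array in each of 2 groups. The hepatospheres were PLC/PRF/5 cells kept as spheroids under the DNA-damaging drugs cisplatin and doxorubicin together, and are called chemoresistant in the labels. The differentiated cells were obtained from spheroids by giving them fetal bovine serum (FBS) and letting them attach, and the labels do not say whether drug had been given to those spheroids. Growth form, serum and possibly drug therefore differed at the same time and cannot be told apart, no difference could be tested, and none carries an error. Every value is a linear MAS5 signal, and every difference is log2 signal in hepatospheres minus differentiated cells.

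Wnt proteins are lipid-modified secreted ligands that bind a Frizzled receptor together with LRP5 or LRP6. Without ligand, a cytoplasmic complex built on AXIN1 and APC lets the kinases CSNK1A1 and GSK3B mark beta-catenin (CTNNB1) for destruction. With ligand, Dishevelled proteins disable that complex, beta-catenin enters the nucleus and works with TCF and LEF factors, and among the genes switched on are inhibitors of the pathway itself, such as AXIN2, RNF43, ZNRF3 and NOTUM. In liver this signalling patterns the lobule around the central vein, and its genes are often mutated in hepatocellular carcinoma.

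The Wnt components did not move together between the 2 arrays. Of the 32 measured members, 5 were at least 2-fold higher in hepatospheres (15.6%), where 12.5% of all 12766 measured genes were. These were DKK3, LRP5, FZD2, TBX3 and TCF7L1. In RNA from whole cultures, more cells with a transcript and more of it in each cell cannot be told apart. Another 2, LGR4 and APC, were at least 2-fold lower (6.25%, against 8.83% of all genes), and 25 lay within 2-fold. The median over the members was -0.14, beside 0.05 over all genes. The member shares were thus near the background in both directions, so these counts do not set the pathway apart from other genes. The split of calls depended on the scaling of the arrays: it was 3 higher and 3 lower when each array was divided by its median signal, 5 and 0 after loess, and 2 and 16 of 30 after scaling to the poly(A) control RNAs. The shares of all genes moved with these scalings, to 9.02% higher and 14.9% lower with median division, 13.3% and 7.85% after loess, and 3.18% and 47.3% with poly(A) scaling. The last scaling moved the median of all genes from 0.05 to -0.94 and the first moved it to -0.19, so the directions given hold for the scaling as deposited.

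**Figure D1:**
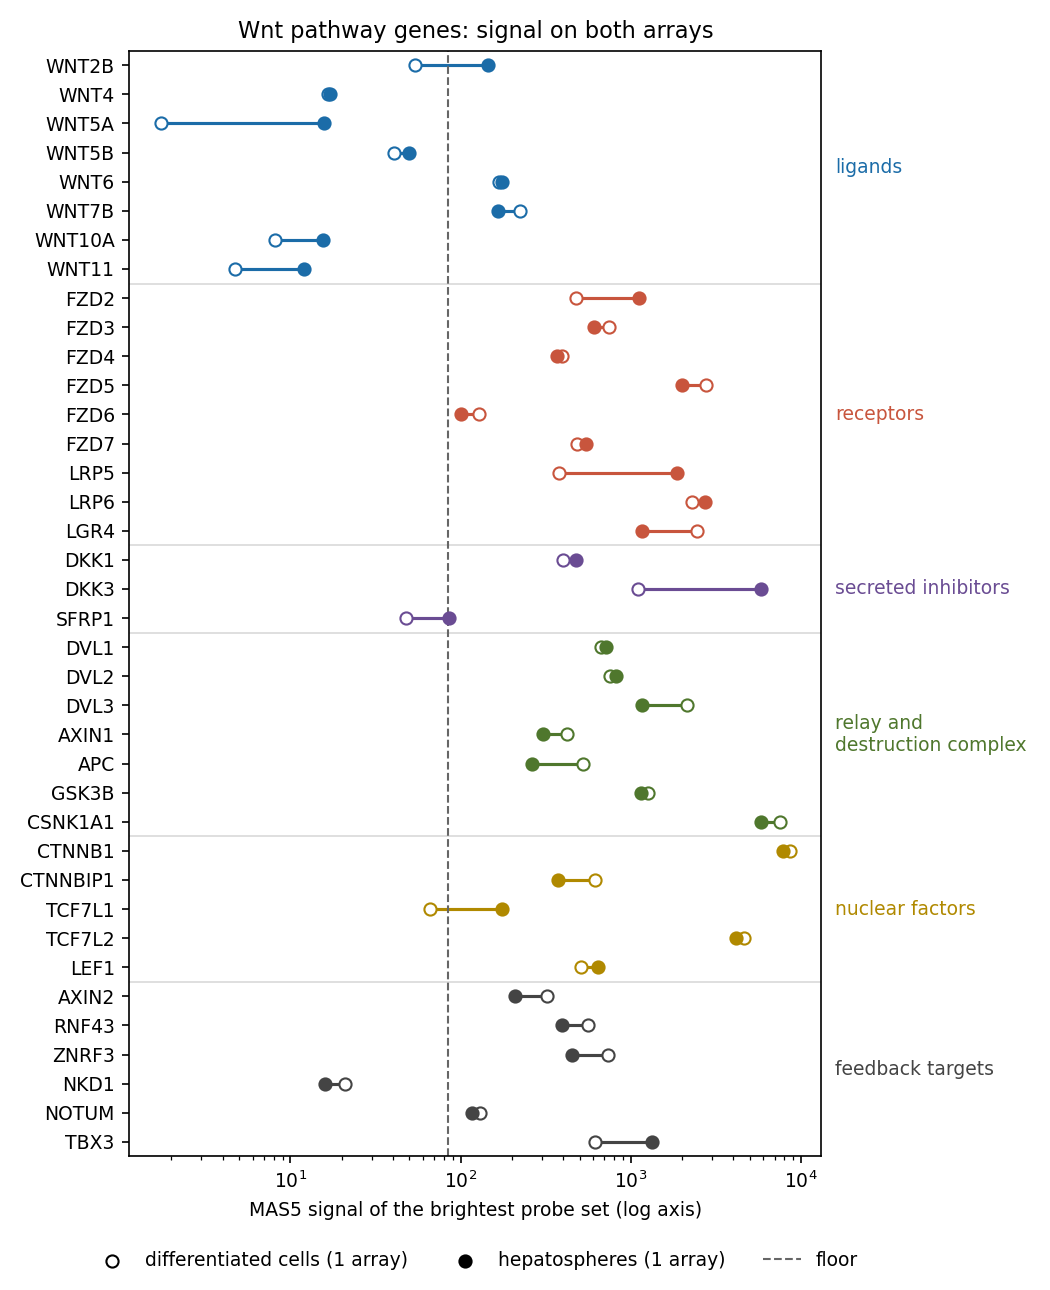
MAS5 signal (log axis) of the brightest probe set of each of 38 Wnt pathway genes, by role, on the array of differentiated cells (open circles) and of hepatospheres (filled circles), with the floor of 84.1 dashed. Among genes above the floor on both arrays, DKK3 and LRP5 have the longest lines, and the lines of WNT5A and WNT11 lie wholly below the floor; signals of different probe sets are not comparable in level.

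By role, the medians ran from 0.24 for the 3 measured secreted inhibitors and 0.07 for 3 ligands to -0.11 for 9 receptors, -0.14 for 5 nuclear factors, -0.39 for 7 genes of the relay and destruction complex and -0.51 for 5 feedback targets. The spread inside a role was wider than the distance between roles. Receptors alone spanned -1.07 to 2.30, and feedback targets -0.70 to 1.10. No role group had more than 2 members at least 2-fold higher or more than 1 at least 2-fold lower. With all measured probe sets of a gene averaged instead of the brightest, the medians of the relay and destruction complex and of the nuclear factors stood at -0.03 and 0.16. Among feedback targets, AXIN2 then stood at -0.25 and TBX3 at 0.25, while RNF43, ZNRF3 and NOTUM, with 1 probe set each, kept their values.

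Ligands were mostly dim. WNT2B, a ligand of the beta-catenin branch, gave 53.9 in differentiated cells, below the floor, against 145 in hepatospheres, so it was at least 1.73-fold higher. Its other measured probe set went the same way, from 17.5 to 116. The size is set by the floor: it was 1.43 (log2) when the floor was lowered to the 40th percentile of signal, and WNT2B was no longer measured when it was raised to the 60th. WNT6 read 168 and 175, a difference of 0.07. WNT7B read 222 and 166, a difference of -0.42, on a probe set of the kind whose name marks cross-matching sequence.

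WNT4, a ligand best known from kidney and gonad development, was below the floor on its brightest probe set at 16.7 and 17.0. Another WNT4 probe set gave 2.12 in differentiated cells against 113 in hepatospheres. The third gave 4.82 and 56.2, in the same direction but below the floor on both arrays. Probe sets of WNT4 thus differed, and only 1 reached the floor. WNT5A and WNT5B, which often act outside the beta-catenin branch, read 1.73 and 40.7 in differentiated cells and 15.8 and 49.8 in hepatospheres. WNT10A read 8.10 and 15.6, and WNT11 read 4.73 and 12.0. All 4 genes were below the floor on both arrays, so no fold is given for them. WLS, the carrier that takes Wnt proteins to the cell surface, was below it too, at 38.2 and 17.1.

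Among receptors, LRP5, the coreceptor that binds Wnt together with a Frizzled protein, stood furthest apart. It gave 381 in differentiated cells against 1874 in hepatospheres, 4.92-fold higher, and its difference of 2.30 was at percentile 97.9 of all measured genes. This rests on 1 measured probe set, since the second LRP5 probe set read 63.6 and 27.4, below the floor on both arrays. LRP6, its close homologue, read 2303 and 2729, a difference of 0.24, and its 3 probe sets ranged from -0.45 to 0.24. The higher signal of LRP5 was therefore not accompanied by a 2-fold difference in LRP6.

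The Frizzled genes did not share a direction. FZD2 gave 477 in differentiated cells against 1115 in hepatospheres, 2.34-fold higher, but its second probe set read 201 and 159 and went the other way. With the mean of both, FZD2 stood at 0.44, and with each array divided by its median signal at 0.96. FZD7, a Frizzled often studied in hepatocellular carcinoma, read 484 and 545, a difference of 0.17, which was -0.09 with median division. The second FZD7 probe set stood at -0.08. FZD3, FZD4, FZD5 and FZD6 stood at -0.30, -0.11, -0.46 and -0.35 on their brightest probe sets. The 4 measured FZD3 probe sets ranged from -0.62 to 0.55, with 1 higher and 3 lower. For FZD5, read at 2758 and 2010, the other probe set stood at 0.16.

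LGR4, which binds R-spondins and thereby protects Frizzled receptors from removal, was the lowest member. It gave 2456 in differentiated cells against 1171 in hepatospheres, 2.10-fold lower, at percentile 7.72 of all genes. Its other 2 probe sets were below the floor on both arrays (7.53 and 12.8, and 18.4 and 11.8), so the difference rests on 1 probe set, whose name marks sequence shared between transcripts. The difference was -0.94 after loess, short of 2-fold. LGR5, a related receptor and stem cell marker, was below the floor at 48.0 and 38.1, as were all of RSPO1, RSPO2, RSPO3 and RSPO4, the ligands of these receptors.

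The secreted inhibitors differed among themselves. DKK3, a Dickkopf family member whose effect on Wnt signalling is less settled than that of DKK1, gave 1104 in differentiated cells against 5822 in hepatospheres, 5.27-fold higher and at percentile 98.2. It is the one member with more than 1 probe set past 2-fold. Its other measured probe sets read 357 and 1310, 185 and 1027, and 175 and 1132. All 4 were thus higher, by 1.88 to 2.70 on the log2 scale, while 2 more were below the floor on both arrays. DKK3 stayed more than 2-fold higher under all 10 alternatives, at 1.35 when scaled to the poly(A) controls.

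DKK1, which blocks LRP5 and LRP6 and is itself a Wnt target, read 402 and 475, a difference of 0.24 on its single probe set. SFRP1, a decoy that binds Wnt ligands, gave 48.0 in differentiated cells against 85.9 in hepatospheres, barely above the floor, and its other 3 probe sets were below it on both arrays. DKK3 is also expressed by stromal cells, and some stromal markers were higher as well. Of 7 fibroblast or stromal markers, 1 reached the floor in differentiated cells and 4 did in hepatospheres, and the sum of their signals, over probe sets that differ in level, was 432 and 4097. LUM, a proteoglycan, gave 1.14 and 2677 and was at least 31.8-fold higher, and the collagen gene COL3A1 gave 42.6 and 679 and was at least 8.07-fold higher. COL1A1 (0.70) and DCN (at least 0.72) lay within 2-fold. COL1A2, PDGFRA and PDGFRB were below the floor on both arrays. Whether the DKK3 signal goes with these marker differences was not tested.

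Promoter sequence is shown for DKK1, as the member whose promoter holds the TCF/LEF motif more than 1 time, and for LRP5, TCF7L1 and LGR4, members at least 2-fold apart with a single start in the RefSeq promoter table (build GRCh38.p14). Each run is the 250 bases before the transcription start, 5′ to 3′ on the gene's own strand, with capitals marking the motif. The motif was searched as CTTTGAA plus CTTTGAT plus CTTTGTA plus CTTTGTT, on both strands. DKK1 lies on the plus strand at chr10:52314031-52314280, LRP5 on the plus strand at chr11:68312341-68312590, TCF7L1 on the plus strand at chr2:85133142-85133391, and LGR4 on the minus strand at chr11:27472791-27473040.
DKK1: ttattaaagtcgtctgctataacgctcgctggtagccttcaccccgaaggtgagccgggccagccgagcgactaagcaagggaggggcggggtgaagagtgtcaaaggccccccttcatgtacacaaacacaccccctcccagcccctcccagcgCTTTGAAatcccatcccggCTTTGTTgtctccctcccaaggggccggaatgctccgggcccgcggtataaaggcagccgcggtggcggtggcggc
LRP5: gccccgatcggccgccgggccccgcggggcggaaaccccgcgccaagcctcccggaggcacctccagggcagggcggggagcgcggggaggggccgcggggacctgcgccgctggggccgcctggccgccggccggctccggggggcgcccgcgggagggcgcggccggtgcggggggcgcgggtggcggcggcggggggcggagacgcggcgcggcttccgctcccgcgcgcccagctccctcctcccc
TCF7L1: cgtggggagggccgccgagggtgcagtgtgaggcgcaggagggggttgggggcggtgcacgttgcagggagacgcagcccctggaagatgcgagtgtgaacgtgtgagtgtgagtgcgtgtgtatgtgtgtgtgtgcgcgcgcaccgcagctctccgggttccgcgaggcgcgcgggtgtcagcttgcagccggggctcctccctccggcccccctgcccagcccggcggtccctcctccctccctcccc
LGR4: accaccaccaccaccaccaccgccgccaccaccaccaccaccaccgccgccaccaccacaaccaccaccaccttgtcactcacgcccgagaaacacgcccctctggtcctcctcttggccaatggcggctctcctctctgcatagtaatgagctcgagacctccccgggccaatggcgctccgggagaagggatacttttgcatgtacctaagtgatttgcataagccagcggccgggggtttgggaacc

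The DKK1 promoter held the motif at 95 and at 76 bases before the start. Of 38 starts of 28 members in the table, including the 4 members with no signal given, 3 held it (7.89%), 1 each of DKK1, TCF7 and TCF7L2, where 12.0% of all 35116 starts did. Member promoters were richer in CpG than the table as a whole, with a median of 21.5 CpG per 250 bases against 11. LRP5 had 43 CpG and 87.2% G and C, and LGR4 had 14 and 62.0%. These counts describe the windows only.

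Of the relay and destruction complex, the Dishevelled genes DVL1 and DVL2 read 670 and 718, and 757 and 821, differences of 0.10 and 0.12. DVL3 gave 2154 in differentiated cells against 1169 in hepatospheres, a difference of -0.88 that passed 2-fold (-1.14) with each array divided by its median signal. Its second probe set read 121 and 120 and did not show this difference. None of the 3 Dishevelled genes was 2-fold apart as reported.

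APC, the scaffold that holds beta-catenin in the destruction complex, gave 526 in differentiated cells against 262 in hepatospheres, 2.01-fold lower and just past the 2-fold limit. Another APC probe set read 148 and 99.8, and still another read 37.1 and 104 and was higher. With the mean over these probe sets APC stood at -0.42, so the call depends on the probe set. AXIN1, the other scaffold, read 422 and 306 on its single probe set, a difference of -0.46.

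The 2 kinases that phosphorylate beta-catenin differed little. GSK3B read 1255 and 1148, a difference of -0.13. CSNK1A1 read 7583 and 5805, a difference of -0.39, but of its 12 measured probe sets 7 were higher and 5 lower, between -0.49 and 0.63, with a mean of -0.03.

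Among nuclear factors, beta-catenin itself (CTNNB1) gave 8631 in differentiated cells against 7813 in hepatospheres, a difference of -0.14. Its other probe sets stood at -0.21 and, at signals of 435 and 781, at 0.84. Arrays measure transcripts, and beta-catenin is controlled mainly as a protein. CTNNBIP1, which keeps beta-catenin from TCF factors, read 620 and 372, a difference of -0.74.

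TCF7L1, the family member that mostly represses targets, gave 65.8 in differentiated cells, below the floor, against 176 in hepatospheres, at least 2.09-fold higher on its single probe set. With the floor at the 40th percentile both signals were above it and differed by 1.42 (log2). A floor raised to the 60th percentile lowered the bound to 0.20, and the difference was 0.79 with log2 of signal plus floor. TCF7L2, the main TCF factor of hepatocytes, read 4652 and 4160 on its brightest probe set, a difference of -0.16, whereas its other 6 probe sets were all higher, up to 1.26 (103 and 246). LEF1 read 512 and 644 on its brightest probe set, a difference of 0.33, and 129 and 48.8 on another. Single probe sets of TCF7L2 and LEF1 therefore point both ways.

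Feedback targets were mostly lower without reaching 2-fold. AXIN2, the most widely used transcriptional readout of beta-catenin, gave 323 in differentiated cells against 209 in hepatospheres, a difference of -0.63. Its second measured probe set read 59.5 and 91.9. RNF43 and ZNRF3, the paired ligases that remove Frizzled receptors, read 559 and 392, and 734 and 452, differences of -0.51 and -0.70.

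NOTUM, an enzyme that strips the lipid from Wnt proteins, read 130 and 117, a difference of -0.15. NKD1 was below the floor at 21.0 and 16.0. The lower side thus held 4 of 5 measured feedback targets. RNF43, ZNRF3 and NOTUM have 1 probe set each, and AXIN2 stood at -0.25 with the mean over its measured probe sets. Of all 12766 genes, 6034 lay below 0.

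TBX3, a T-box factor and a beta-catenin target in liver tumours, was the exception among them. It gave 620 in differentiated cells against 1329 in hepatospheres, 2.14-fold higher. Its other measured probe sets read 739 and 593, and 188 and 184, and did not follow. With the mean of the 3, TBX3 stood at 0.25, and with median division of the arrays at 0.84.

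**Figure D2:**
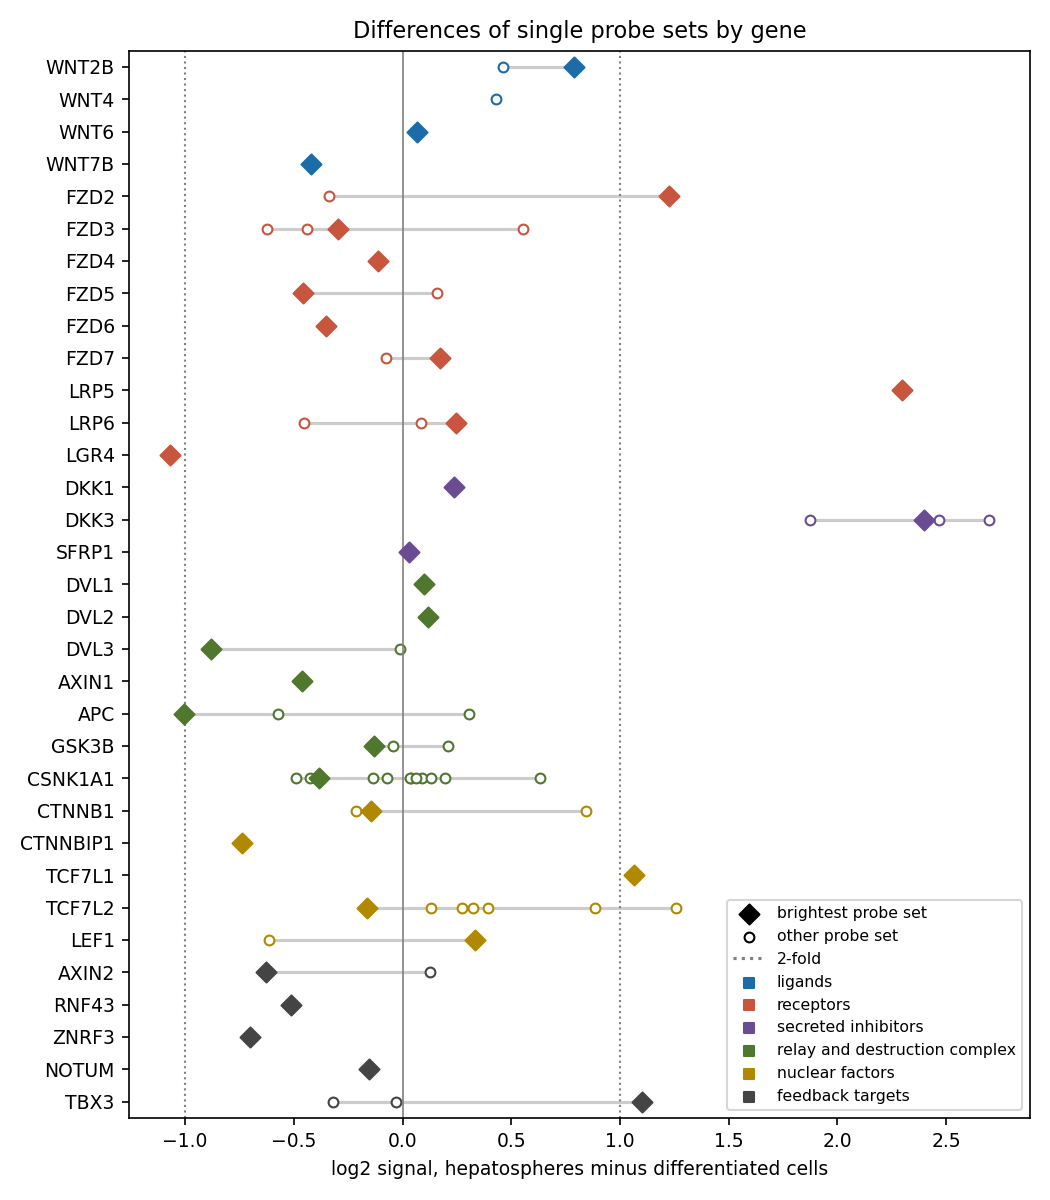
Log2 difference of each of 74 measured member probe sets, hepatospheres minus differentiated cells, by gene, with the brightest probe set of a gene as a diamond, others as open circles, a line over their range and 2-fold dotted. All 4 DKK3 probe sets lie beyond 2-fold, whereas those of FZD2, TBX3, APC, TCF7L2 and CSNK1A1 lie on both sides of 0; the open circle of WNT4 is a probe set other than its brightest.

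Probe sets of the same member often disagreed in sign. Of 17 members with several measured probe sets, 4 had all of them on the same side of 0 (23.5%), where 64.1% of 6230 genes did. The 4 were DKK3, DVL2, DVL3 and WNT2B. With exactly 2 measured probe sets this held for 3 of 8 members and for 74.2% of all such genes. A sign near 0 carries little information. Within 2-fold lay 25 of the 32 measured members and 10038 of all 12766 genes, and the reason for the lower agreement among members was not tested. The pooled SD of probe sets within a member was 0.48 on the log2 scale, beside 0.55 over all genes. The SD between members was 0.83, beside 0.93 between all genes. Over single probe sets, 9 of 74 were at least 2-fold higher (12.2%, against 11.6% of 23825) and 2 at least 2-fold lower (2.70%, against 9.59%).

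**Figure D3:**
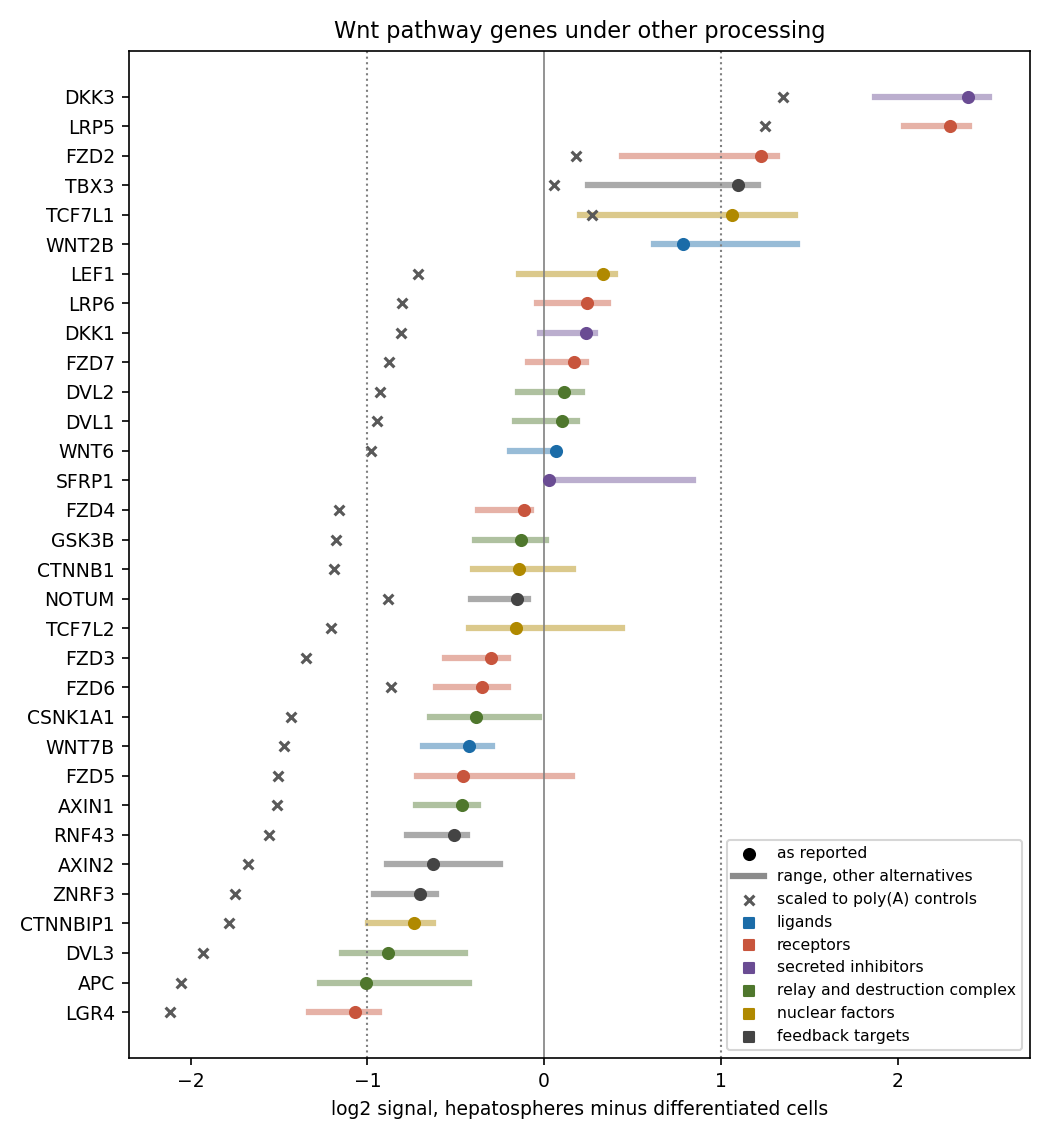
Log2 difference, hepatospheres minus differentiated cells, of the 32 measured members as reported (dots), its range over the alternatives other than poly(A) scaling (bars) and its value when scaled to the poly(A) controls (crosses). The bars of DKK3 and LRP5 stay beyond 2-fold throughout, and those of FZD2, TBX3, TCF7L1, WNT2B, LGR4, APC and DVL3 cross a 2-fold line. Crosses are drawn for 30 members, without WNT2B and SFRP1, and all but 5 of them lie below 0.

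Of the members, only DKK3 and LRP5 stayed at least 2-fold apart under every alternative tried. LRP5 stood between 2.04 and 2.40 without poly(A) scaling and at 1.25 with it. With 1 measured probe set and signals above each floor, LRP5 could not change under several of the alternatives. It stayed at 2.30 with the floor at the 40th or 60th percentile, with no floor and under both other choices of probe set. Of the 32 measured members, 21 kept their side of 0 under every alternative other than poly(A) scaling in which they were measured. Lowering or removing the floor could not change members above it on both arrays. Under poly(A) scaling, 5 of 30 members were above 0: DKK3, LRP5, TCF7L1 at 0.27, FZD2 at 0.18 and TBX3 at 0.05.

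Other genes of the pathway were taken from a second list of 70, of which 38 were measured. At least 2-fold higher were 6 (15.8%, against 12.5% of all genes), and 2 were lower (5.26%, against 8.83%), with a median of 0.14. With median division of the arrays the split was 5 and 4, where 9.02% of all genes were higher and 14.9% lower. With poly(A) scaling it was 2 and 16, where 3.18% of all genes were higher and 47.3% lower. WIF1, a secreted protein that binds Wnt ligands, gave 17.9 in differentiated cells against 2104 in hepatospheres, at least 25-fold higher on its single probe set. It stayed more than 2-fold higher under all 10 alternatives. The DKK1 receptors KREMEN1 and KREMEN2, which help to clear LRP6 from the membrane, read 197 and 449, and 17.8 and 242. KREMEN1 was 2.28-fold and KREMEN2 at least 2.87-fold higher, though KREMEN2 stood at 0.66 for a floor at the 60th percentile and KREMEN1 at 0.93 with median division. Each rests on 1 measured probe set, and the other KREMEN1 probe sets were below the floor on both arrays.

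TLE2, a corepressor that sits on TCF factors in the absence of beta-catenin, gave 232 in differentiated cells against 1244 in hepatospheres, 5.37-fold higher, and its second probe set read 158 and 386. Its relatives TLE1, TLE3 and TLE5 stood at 0.38, -0.37 and -0.24 on their brightest probe sets. The other measured TLE3 probe sets were all higher, at 0.20, 0.92 and 1.51. With the mean over probe sets, TLE1 stood at 0.01 and TLE3 at 0.56. CELSR3, a cadherin of planar polarity, read 272 and 691 and 93.1 and 261 on its probe sets, 2.54-fold higher on the brighter. ROR1, a receptor for WNT5A, read 59.5 and 204, at least 2.43-fold higher, but 0.37 without probe sets of shared sequence.

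On the lower side, FRAT2, which inhibits GSK3, gave 3768 in differentiated cells against 1536 in hepatospheres, 2.45-fold lower, and its neighbour FRAT1 stood at -0.77. BCL9L, a coactivator of beta-catenin, read 879 and 380, 2.31-fold lower, and its second probe set stood at -0.51. With the mean over both, BCL9L stood at -0.86.

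Of 20 genes known as beta-catenin targets in liver or colon, 15 were measured, with a median of -0.04. At least 2-fold higher were 3 (20%, against 12.5% of all genes), and 1 was lower (6.67%, against 8.83%). With median division the split was 1 and 3, where 9.02% of all genes were higher and 14.9% lower. With poly(A) scaling it was 1 and 8, where 3.18% of all genes were higher and 47.3% lower. JUN read 1648 and 8424, 5.11-fold higher with all 4 probe sets up. BMP4 read 299 and 683, 2.29-fold higher, and CD44 read 268 and 562, 2.10-fold higher, though CD44 stood at 0.59 without probe sets of shared sequence and BMP4 at 0.93 with median division. All 7 measured CD44 probe sets were higher, with a mean of 1.25, and CD44 stood at 0.81 with median division. CCND1, the cell cycle gene cyclin D1, read 2799 and 1250, 2.24-fold lower, and stood at -0.95 with the mean over both its probe sets. These genes also answer to other pathways. The liver targets GLUL, CYP2E1, CYP1A2, OAT and SLC1A2 stood at -0.11, -0.55, 0.39, 0.16 and -0.22, and LECT2, RHBG and REG3A were below the floor on both arrays. For GLUL the other measured probe sets were higher, at 0.61 and 0.69, and its mean over probe sets was 0.40. For SLC1A2 the other measured probe set stood at 0.53.

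**Figure D4:**
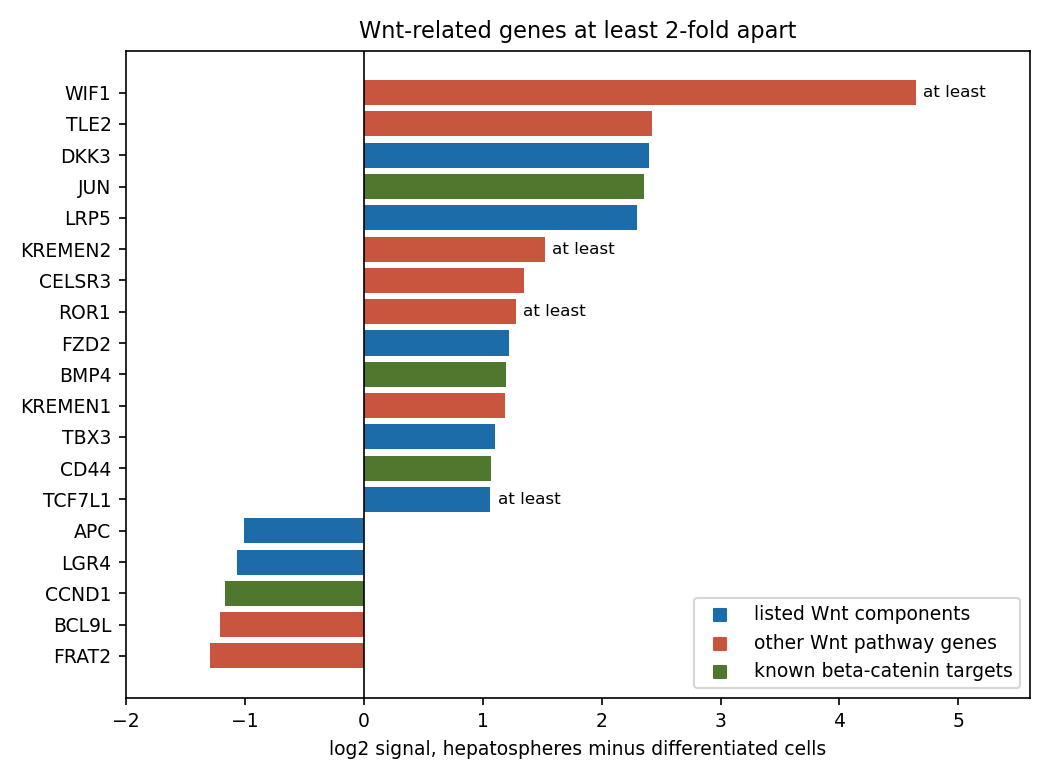
Log2 difference, hepatospheres minus differentiated cells, of the 19 Wnt-related genes at least 2-fold apart: 7 listed components, 8 other pathway genes and 4 known beta-catenin targets. Bars marked "at least" have 1 array below the floor; WIF1 reaches 4.64, and TLE2, DKK3, JUN and LRP5 lie between 2.30 and 2.42.

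Genes near the members on the chromosome were set beside them. LRP5, DKK3 and LGR4 all lie on chromosome 11. The 50 nearest measured genes of DKK3 (25 on each side, in RefSeq order) had a median of -0.60, with 2 at least 2-fold higher and 13 lower. Around LRP5 the median was -0.25, with 2 of 50 higher and 8 lower, and around LGR4 it was -0.35, with 1 of 50 higher and 15 lower. Over all measured genes 12.5% were higher and 8.83% lower. All 3 stretches thus had medians below 0 and more genes at least 2-fold lower than higher, while most neighbours lay within 2-fold. LGR4 itself was lower, whereas DKK3 and LRP5 were higher. A link between a gene and its stretch was not tested.

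WIF1, on chromosome 12, had neighbours with a median of -0.55, of which 0 of 50 were at least 2-fold higher and 17 were lower. Around FZD2, TBX3, TCF7L1 and APC the medians were 0.25, -0.20, 0.16 and -0.05. FZD4 stood at -0.11 in a stretch of chromosome 11 with a median of -0.55. FZD1, from the second list, stood at 0.03 (118 and 121) in a stretch of chromosome 7 where 26 of 50 neighbours were at least 2-fold higher and the median was 1.03.

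The arrays themselves differed in ways that touch all of these values. The median signal was 70.6 against 84.1 (differentiated cells given before hepatospheres), the geometric mean signal of the 24 poly(A) control probe sets was 655 and 1352, and the ratio of 3' to 5' signal was 1.48 and 2.64 for ACTB and 0.987 and 1.04 for GAPDH. Of 11 hepatocyte markers listed, 10 had a probe set, and all 10 were above the floor on both arrays. Of these, ALB, TTR, APOA2 and APOH were 2.71-fold, 5.62-fold, 5.07-fold and 3.09-fold higher in hepatospheres, AFP was 5.66-fold lower, and the other 5 lay within 2-fold. Of the defining markers of other cells, PECAM1 (3388 and 3787) and HBB (169 and 251) reached the floor on both arrays, whereas CDH5, VWF, KDR and TEK (endothelium) and PTPRC, CD14 and CD3E (blood) were below the floor on both arrays. The part of RNA quality, of the control RNAs or of these marker differences in the Wnt values was not tested.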

How the data were processed

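Total RNA of 2 PLC/PRF/5 cultures was measured on 1 array each, grouped by the labels' source names. The authors deposited linear intensity values made with MAS5, per the submitters' processing notes. For MAS5, neither version nor scaling target is given in the sources used here. The 2% trimmed mean was 500.1 on both arrays, while their medians differed. Precision is limited by the number of arrays.

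Of 54675 probe sets, 62 were controls, 41091 paired with 1 symbol in the array annotation, 1801 with several and 11721 with none. For each of 19775 genes the brightest probe set, by mean log2 signal, was used. Signals below the floor, the 50th percentile of the array where it was higher (84.1), were raised to it before log2, and such folds are lower bounds ("at least"). Genes that reached the floor on either array count as measured. Differences past 2-fold were counted, without any test. Every member is accounted for; genes of the second lists were named where at least 2-fold apart, and the others named there, WLS, LGR5, the R-spondins, FZD1, FRAT1, the TLE relatives and the liver targets, after their values were seen. RefSeq (GRCh38.p14) gave gene order and promoters. The 10 alternatives were 4 other scalings, 4 other treatments of the floor and 2 other choices of probe set. The calculation was tested on simulated data. The members and lists were chosen with earlier results of these data known. Python 3.11.15, numpy 2.4.6, pandas 2.3.3 and statsmodels 0.14.6 (loess, span 0.3) were used.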

Additional observations from a re-analysis of the deposited data

How the results depend on the processing

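With 1 array a group there are no replicates to leave out, and no paired analysis was possible. A median counts as moved where it shifts by more than 0.48, the pooled SD of probe sets within a member, and a count where it changes by over 1.5 times. Quantile normalization moved no count and no median in this sense. Scaling to the poly(A) controls moved most: 2 members were at least 2-fold higher and 16 lower, the median over members was -1.17, and the medians of ligands, receptors, the relay and destruction complex, nuclear factors and feedback targets were -1.23, -0.87, -1.43, -1.19 and -1.56. Of the other pathway genes 2 were then higher and 16 lower, and of the beta-catenin targets 1 and 8. With each array divided by its median signal, 3 members were higher, 4 other pathway genes lower, and 1 target was higher and 3 lower. The members at least 2-fold lower fell from 2 to 0 after loess, to 1 with log2 of signal plus floor, to 1 with the mean over probe sets and to 0 without shared-sequence probe sets, where LGR4 and APC had no measured probe set left. With the mean over probe sets 3 members were higher and 0 targets lower. The median of the secreted inhibitors was 0.79 with the floor at the 40th percentile, 1.32 at the 60th, where SFRP1 was no longer measured, and 0.84 with no floor. Over single members and alternatives, 268 values kept their side of 2-fold, and those of members within 2-fold also moved by no more than 0.48. A further 13 fell short of 2-fold, 17 passed it and 13 moved by more than 0.48. Some of the 268 values could not change. A gene above the floor on both arrays keeps its value when the floor is lowered or removed. A measured member with 1 measured probe set keeps its value under the mean over probe sets. Dim signals near the floor, such as those of WNT2B, SFRP1 and TCF7L1, limit what can be said of these genes.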
